A study of Mus musculus with 9 samples.

Results

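The genes described here are the ubiquitin-conjugating enzymes (symbols Ube2), the Ube3 ubiquitin ligases, the ubiquitin-specific proteases (symbols Usp followed by a number) and the tripartite motif family (symbols Trim followed by a number), without Usp18. Their promoter accessibility was compared between HPC7 cells carrying Snai1 and cells carrying an empty vector. RefSeq lists 172 such genes, pseudogenes and non-coding genes included, and 109 of them had a promoter window in the authors' deposited table: 31 of 42 Ube2, 3 of 3 Ube3, 41 of 58 Usp and 34 of 69 Trim genes. The table as a whole gave a window to 10185 genes. The members were chosen by symbol, though with earlier results of these data known. The other 63 are not analysed here.

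The assay was ATAC-seq, which reads open chromatin from the sites where Tn5 transposase inserts its adapters. HPC7 is a mouse hematopoietic progenitor cell line maintained in stem cell factor. All groups carried a MIG retroviral vector: the empty vector (EV, 3 libraries), wildtype Snai1 (FLAG-tagged, 3 libraries) or the mutant mut5Snai1 (3 libraries, not analysed here). Snai1, a zinc finger repressor known from epithelial-mesenchymal transition, was thus expressed from a vector in 1 cell line. Whether the libraries within a group stem from independent transductions is not stated by the labels, so p-values reflect only a between-library spread that may be technical. Of 10 progenitor genes, 9 had a window, among them Kit, Cd34, Tal1 and Lyl1, while 0 of 6 fibroblast and 0 of 5 epithelial marker genes had one.

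Ubiquitin is attached to proteins by a relay in which an activating enzyme (E1) loads a conjugating enzyme (E2), and a ligase (E3) brings the E2 to its substrate. Most Ube2 genes encode E2 enzymes, Ube3 genes encode HECT ligases that take over the ubiquitin before passing it on, and most Trim genes encode ligases with a RING domain, many of them known from innate immunity and transcription control. Usp enzymes remove ubiquitin again. Together they set the lifetime of regulators in progenitor cells, and the Snai1 protein itself is a short-lived substrate of this system. A few symbols do not mark such enzymes. Ube2d-ps is listed in RefSeq as a non-coding gene, Ube2cbp encodes a protein that binds an E2, and Usp6nl encodes a regulator of Rab GTPases.

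The promoters of 34 of the 109 members changed, 22 higher and 12 lower in Snai1 at the authors' FDR of at most 0.05. That is 31.2% of the members, against 29.9% of all 10185 genes (19.6% higher, 10.3% lower). The share of the members was thus near that of the background. Changes in this text are Snai1 minus EV on the log2 scale. The authors' log2 concentration is DiffBind's log2 normalized read count of a window, given as 1 value per group with no value per library. Windows on the plus strand were wider (2001 bp, median over all windows 11.02) than those on the minus strand (1101 bp, median 10.58). Levels of different genes were not adjusted for this width. The median change of the members was 0.05, against 0.08 for all genes, and the quartiles were -0.06 and 0.17. A log2 difference of at least 0.5 in either direction was found for 6 of the 109 in the authors' deposited table, a share near the 6.39% of all genes. These were Trim14, Trim30a, Trim13, Usp43, Usp25 and, without passing the test, Trim2.

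The families differed in their counts. The authors' deposited table calls 15 of 34 Trim promoters (44.1%; 11 higher, 4 lower), 10 of 41 Usp promoters (24.4%; 6 higher, 4 lower), 9 of 31 Ube2 promoters (29.0%; 5 higher, 4 lower) and 0 of 3 Ube3 promoters. The Ube3 count was also 0 at an unadjusted p under 0.05 and 0 in both re-tests described below. Median changes were 0.13 for Trim, 0.03 for Usp, 0.04 for Ube2 and 0.05 for Ube3 genes, beside 0.08 for all genes. Of these families, the spread over genes was widest among the Trim genes (SD over genes 0.32) and narrower for Usp (0.22) and Ube2 (0.17). Over all genes the SD was wider still, 0.39. No test of the difference between families was made, because the table has no values per library.

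**Figure D1:**
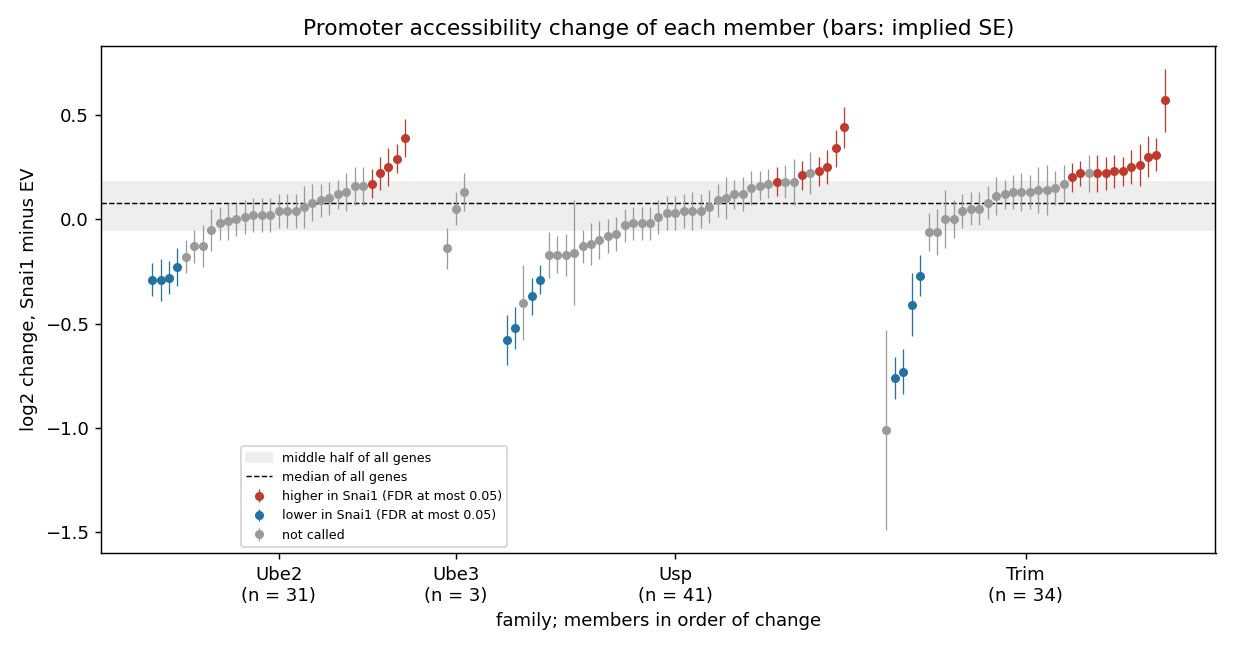
Log2 change of promoter accessibility (Snai1 minus EV, vertical axis) of each of the 109 members, in order of change within its family; bars are the standard error worked back from the authors' p-value, the dashed line is the median of all genes (0.08) and the grey band the range between their quartiles (-0.05 to 0.18). The Trim family holds the extremes, from Trim2 at -1.01 to Trim13 at 0.57, and all 3 Ube3 genes are grey (not called).

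The promoter sequences of the 4 called members with the largest changes that have an entry in the RefSeq promoter table (build GRCm38.p6, the same coordinates as mm10; 250 bases before to 50 after the start) are shown because they differ greatly in base composition. Each is read 5′ to 3′ on the strand of the gene, with every CpG dinucleotide in capitals. Trim14 and Usp43, which rank among the largest changes, have no entry there.
Trim30a (chr7:104465144-104465443, minus strand): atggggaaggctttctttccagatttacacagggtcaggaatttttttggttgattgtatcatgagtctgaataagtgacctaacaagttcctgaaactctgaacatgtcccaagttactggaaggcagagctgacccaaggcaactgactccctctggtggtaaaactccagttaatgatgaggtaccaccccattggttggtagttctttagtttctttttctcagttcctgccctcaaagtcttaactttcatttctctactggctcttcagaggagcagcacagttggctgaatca
Trim13 (chr14:61597976-61598275, plus strand): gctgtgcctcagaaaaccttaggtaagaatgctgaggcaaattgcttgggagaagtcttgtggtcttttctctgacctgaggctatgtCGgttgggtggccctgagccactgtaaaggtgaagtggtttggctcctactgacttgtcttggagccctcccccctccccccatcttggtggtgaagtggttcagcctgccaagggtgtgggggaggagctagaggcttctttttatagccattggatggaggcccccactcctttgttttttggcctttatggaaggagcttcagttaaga
Usp25 (chr16:77013819-77014118, plus strand): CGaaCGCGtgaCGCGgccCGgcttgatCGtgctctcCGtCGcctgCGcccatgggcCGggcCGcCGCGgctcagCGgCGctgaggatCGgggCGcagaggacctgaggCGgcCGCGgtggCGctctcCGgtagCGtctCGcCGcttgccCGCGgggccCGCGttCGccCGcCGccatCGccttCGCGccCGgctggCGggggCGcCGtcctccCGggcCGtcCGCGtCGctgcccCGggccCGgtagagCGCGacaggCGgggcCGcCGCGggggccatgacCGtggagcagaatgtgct
Usp45 (chr4:21776020-21776319, plus strand): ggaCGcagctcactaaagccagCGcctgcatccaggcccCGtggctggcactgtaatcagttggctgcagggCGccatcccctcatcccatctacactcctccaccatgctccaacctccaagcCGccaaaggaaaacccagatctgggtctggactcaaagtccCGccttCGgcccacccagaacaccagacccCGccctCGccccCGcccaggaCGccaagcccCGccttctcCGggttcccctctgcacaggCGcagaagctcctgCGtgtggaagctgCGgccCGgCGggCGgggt
The Trim30a promoter holds 0 CpG and the Trim13 promoter 1, whereas Usp45 holds 19 and Usp25 holds 54. The median over 8138 genes with an entry was 22. CpG-dense promoters are typically those of broadly active genes.

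The Trim promoters fell into a few clear decreases and a larger set of small increases. Trim14, which encodes an adaptor of antiviral signalling on mitochondria, had a log2 concentration of 10.15 in EV and 9.39 in Snai1 in the authors' deposited table (mm10, chromosome 4, 46536041 to 46537141, at the 5' end of the gene). It fell by 0.76, a 1.69-fold difference, with an implied SE of 0.10 and an FDR of 8.69e-12. The implied SE was worked back from the authors' p-value, as the size of the change over the normal deviate that this p-value corresponds to. Trim30a, a SPRY-domain gene of innate immune cells that dampens Toll-like receptor signalling, went from 9.69 to 8.96 (chromosome 7, 104465093 to 104466193), a change of -0.73 in the authors' deposited table (FDR 1.28e-10, implied SE 0.11). Both promoters lay below the median over all genes (10.82) in EV as well as in Snai1, each in a narrower minus-strand window.

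Trim30a stands in a cluster of related Trim genes on chromosome 7, and its neighbours did not move with it. In the authors' deposited table Trim34a, 220.7 kb from Trim30a, rose from 10.00 to 10.32 (change 0.31, FDR 9.01e-04). Trim12c, which lies between them, had values of 10.17 and 10.34 (change 0.17, FDR 0.121). The cluster holds close copies of these genes (Trim30b, Trim30c, Trim30d, Trim34b, Trim12a) that had no window, so reads of these 3 promoters are uncertain. Trim21, the cytosolic antibody receptor gene on the same chromosome, had a change of 0.13 (FDR 0.231), whereas in the authors' deposited table Trim68, 121.8 kb from Trim21, rose by 0.26 (FDR 0.0275).

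Trim13, which encodes a ligase anchored in the endoplasmic reticulum membrane, showed the largest increase of any member. Its level was 8.97 in EV and 9.54 in Snai1 (chromosome 14, 61597226 to 61599226), a change of 0.57 in the authors' deposited table (FDR 9.36e-04, implied SE 0.15). Trim59, also membrane-anchored, had values of 11.50 and 11.65 (change 0.15, FDR 0.164). Beside Trim13, the next increases were small: Trim34a, Trim39 (0.30, FDR 0.0112), Trim68 and Trim16 (0.25, FDR 0.00636) in the authors' deposited table. The other 6 Trim genes called higher, Trim27 among them (0.22, FDR 0.00427), rose by 0.20 to 0.23. Trim27 encodes a nuclear ligase first found as part of a fusion oncogene.

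Among the 4 Trim genes with NHL repeats, which include regulators of development and messenger RNA, 0 rose and 2 fell. This is 50.0% of a list of 4, beside 29.9% of all genes. Trim71, a stem cell gene repressed by the let-7 microRNA, fell from 8.52 to 8.10 (change -0.41 with implied SE 0.15, FDR 0.0253), and Trim32 fell from 10.60 to 10.33 (change -0.27, FDR 0.0312) in the authors' deposited table. Trim2 had the largest difference of all members, 7.50 against 6.49, at a window inside the gene. With an implied SE of 0.48 it did not pass (change -1.01, FDR 0.0964). Trim3 had a change of -0.06 (FDR 0.733). Against the stretch medians described below 1 of the 4 was called, Trim71, while Trim32 was not (FDR 0.0901). The Trim71 window was weakly open, with a log2 concentration of 8.32 beside a median of 10.82 for all genes.

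The transcription cofactors with a PHD finger and a bromodomain were not called: of 3 with a window, from a list of 4, 0 passed in either direction (0 also at an unadjusted p under 0.05, and 0 against the stretch median described below). Trim28, which encodes the KAP1 corepressor of zinc finger proteins, was among the most open members, 12.72 in EV and 12.78 in Snai1 (change 0.05, FDR 0.715) in the authors' deposited table. Trim24 had a change of 0.08 (FDR 0.562) and Trim33 of 0.05 (FDR 0.633). Trim25, the ligase of the RNA sensor RIG-I, had a change of 0.13 (FDR 0.245), and Trim37, a ligase of peroxisomes and centrosomes, 0.13 (FDR 0.232). Over the list of innate immunity Trim genes, 9 of 16 had a window, of which 1 rose, 2 fell and 6 were not called (median change 0.13). The called share was 33.3%, beside 29.9% of all genes.

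**Figure D2:**
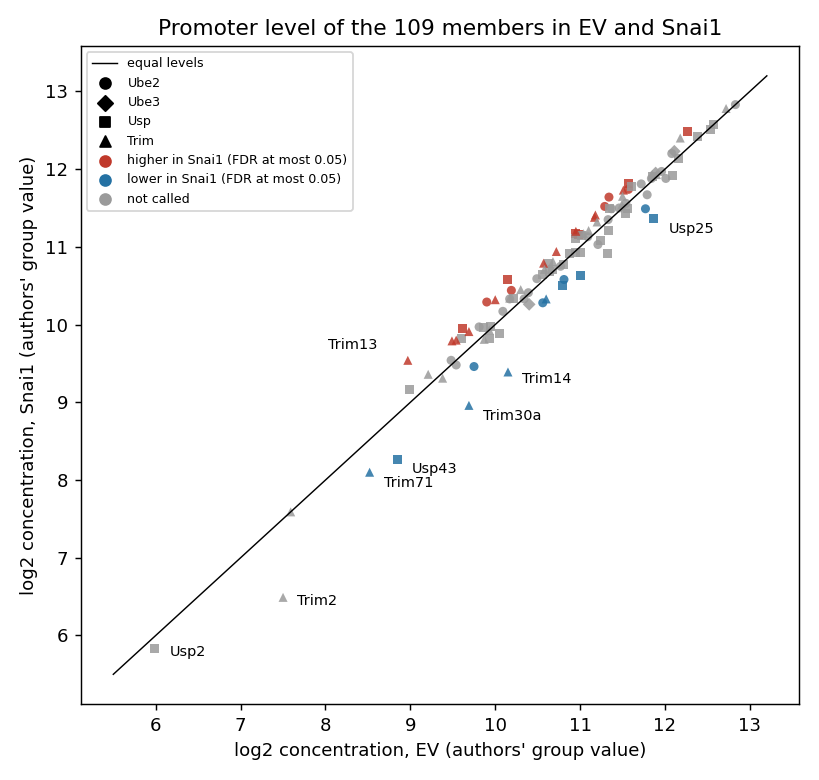
Authors' log2 concentration in Snai1 (vertical axis) against EV (horizontal axis) for the 109 members, with a line at equal levels; symbols mark families and colours the authors' call at an FDR of at most 0.05. Most members lie close to the line, while Trim14 (10.15 and 9.39) and Trim30a (9.69 and 8.96) lie well below it, as does Trim2 (7.50 and 6.49), which was not called.

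Of the Usp genes, Usp43 fell most. Its window at the 5' end of the gene (chromosome 11, 67922053 to 67923153) had a log2 concentration of 8.85 in EV and 8.27 in Snai1 in the authors' deposited table, a change of -0.58 (implied SE 0.12, FDR 4.23e-05). Usp25, a deubiquitinase of inflammatory signalling whose promoter is the CpG-dense one shown above, fell from 11.87 to 11.36 (chromosome 16, 77013069 to 77015069), a log2 difference of -0.52 with an FDR of 7.73e-06 and an implied SE of 0.10. Usp16, a deubiquitinase of histones with a known part in blood stem cell function, fell from 11.00 to 10.63 (change -0.37, FDR 5.25e-04), and Usp21, another histone deubiquitinase, from 10.79 to 10.50 (change -0.29, FDR 7.34e-04) in the authors' deposited table. Usp25, Usp16 and Usp21 lay in stretches of chromosome that were lower as a whole.

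Increases among the Usp genes were led by Usp45, a partner of the DNA repair nuclease ERCC1. Its window, 9109 bp inside the gene at the alternative start shown above (chromosome 4, 21775270 to 21777270), rose from 10.14 to 10.58 in the authors' deposited table, by 0.44 with an implied SE of 0.10 (FDR 2.10e-04). Usp39, a catalytically inactive family member that works in the spliceosome, rose from 9.61 to 9.95 (change 0.34, FDR 0.00119). Smaller rises were found at Usp36, the nucleolar deubiquitinase gene (0.25, FDR 0.00661), Usp8, which acts on endosomal cargo (0.23, FDR 0.00629), and Usp5, which takes apart free ubiquitin chains (0.21, FDR 0.0135) in the authors' deposited table. The Usp5 window lies wholly within that of Cdca3 on the other strand (change 0.22), so its reads entered both. In all, 8 members had a window that overlapped another one, always on the other strand. Of the 4 called among them, 3 had a partner called in the same direction.

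The most studied Usp genes were not called, and their levels differed. In the authors' deposited table Usp1, which acts on the Fanconi anemia pathway, had 12.54 in EV and 12.51 in Snai1 (change -0.02, FDR 0.866). Usp22, of the SAGA coactivator complex, had 12.38 and 12.42 (change 0.03, FDR 0.804), and the X-linked Usp9x 11.85 and 11.91 (change 0.06, FDR 0.663). Usp7, which protects Mdm2 and p53, had a weaker window that lies 18725 bp inside the gene, with 9.60 and 9.82 (change 0.22, FDR 0.068). Usp48 had a change of 0.18 (FDR 0.0622) and Usp28, which stabilises Myc, of -0.17 (FDR 0.131). Usp14, the deubiquitinase bound to the proteasome, had 10.05 and 9.88 (change -0.17, FDR 0.215), and both it and Usp7 lay below the median level of all genes (10.82). Of 11 Usp genes with a window on a list for histones and DNA repair, 0 rose, Usp16 and Usp21 fell, and 9 were not called (median change -0.02). The called share was 18.2%, beside 29.9% of all genes. Against the stretch medians described below, 0 were higher and 2 lower, Usp28 and Usp3 (18.2%, beside 12.5% of all genes). With the median of all windows subtracted, 0 were higher and 4 lower (36.4%, beside 21.0% of all genes).

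Among the conjugating enzymes the changes were smaller, from -0.29 to 0.39. Ube2v2, an inactive E2 variant that pairs with Ube2n in DNA damage tolerance, rose from 9.90 to 10.29 in the authors' deposited table (chromosome 16, 15594418 to 15595518), by 0.39 with an implied SE of 0.09 (FDR 7.15e-05). Its partner Ube2n had 12.08 and 12.20 (change 0.13, FDR 0.298). Ube2t, the E2 of the Fanconi anemia pathway, fell from 11.77 to 11.49 (change -0.28, FDR 0.00331). The close relatives Ube2a and Ube2b, both orthologs of yeast Rad6, had changes of 0.08 (FDR 0.539) and -0.23 (FDR 0.0463), the latter at a window inside the gene and with the largest FDR of any called member. In all, 1 of the 6 E2 genes of DNA damage and chain signalling rose and 2 fell (50.0% called, beside 29.9% of all genes). Against the stretch medians described below, 0 of the 6 were higher and 1 lower (Ube2b). Ube2v2 and Ube2t were not called there (FDR 0.69 and 0.827).

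The E2 enzymes that carry ubiquitin-like proteins moved both ways, 1 higher and 1 lower of 4 (50.0% called, beside 29.9% of all genes). Against their stretch medians 0 of the 4 were higher and 2 lower. Ube2l6, the conjugating enzyme of the interferon-induced modifier ISG15, fell from 9.75 to 9.46 (change -0.29 with implied SE 0.10, FDR 0.0122), and Ube2m, which passes NEDD8 to cullins, rose from 11.29 to 11.52 (change 0.22, FDR 0.025) in the authors' deposited table. The start of Ube2m lies 14.1 kb from that of Trim28, which had a change of 0.05. Ube2l3, which serves HECT and RBR ligases, fell from 10.56 to 10.28 (change -0.29, FDR 0.00124).

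Of the E2 genes of the endoplasmic reticulum, Ube2j1 rose (10.19 to 10.44, change 0.25, FDR 0.0166) and the other 3 had changes of 0.01 to 0.10 in the authors' deposited table. Ube2k, which builds degradative chains, rose by 0.17 (FDR 0.0388). Ube2d-ps rose by 0.29 (FDR 7.75e-04), but its window overlaps that of Urgcp by 875 bp, which changed by 0.21 (FDR 0.0238). The widely used Ube2d and Ube2e enzymes were not called, 0 of 5 with a window (0 also at an unadjusted p under 0.05, and 0 against the stretch median). Ube2d3, the most open member, had 12.83 in both groups (FDR 0.995). Ube2c, the E2 of the anaphase-promoting complex, had a change of 0.12 (FDR 0.165).

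The Ube3 ligase genes showed no called change. In the authors' deposited table Ube3a, the gene of Angelman syndrome, had 12.11 in EV and 12.23 in Snai1 (change 0.13, implied SE 0.09, FDR 0.279). Ube3b had 10.40 and 10.26 (change -0.14, FDR 0.308) and Ube3c 11.89 and 11.95 (change 0.05, FDR 0.621). The Ube3b window covers that of Kctd10 on the other strand, which had a change of -0.15.

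Many of these changes were shared with neighbouring promoters along the chromosome. Each chromosome was divided into stretches of like change, and the median change of its stretch was subtracted from each window before it was tested again with the implied SE. Stretches with a median 0.2 or more away from that of all windows are called shifted here. Stretches were drawn from these same changes, so a high called share in shifted ones follows from how they were defined. In shifted stretches 8 of 9 members were called, against 26 of 100 elsewhere (26.0%; 25.8% of all genes elsewhere). Over all genes, 649 of 885 in such stretches were called. All 9 were Ube2 or Usp genes, and 0 of the 34 Trim genes lay in such a stretch. Without the shifted stretches the calls were 5 of 27 Ube2 (18.5%), 6 of 36 Usp (16.7%) and 15 of 34 Trim promoters (44.1%).

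Chromosome 16 carried 5 of the 9. Usp7 at 8.7 Mb (change 0.22, not called) and Ube2v2 at 15.6 Mb (0.39) lay in a stretch with a median of 0.32. Ube2l3 at 17.2 Mb (-0.29) lay just beyond, in a stretch from 16.9 to 19.9 Mb with a median of -0.24. Usp25 at 77.0 Mb (-0.52) and Usp16 at 87.5 Mb (-0.37) shared a stretch with a median of -0.39. Set against those medians, the 5 changes were -0.10, 0.07, -0.05, -0.13 and 0.02, and 0 of them passed (FDR 0.48 to 0.933). The stretches were fitted to these same changes, which favours small remainders. Ube2t and Usp21 lay in the lower stretch of chromosome 1 (median -0.24), and Usp45 and Ube2j1 in the higher stretches at the start of chromosome 4 (medians 0.55 and 0.34). None of these 4 passed against its stretch median. What lies behind these regional shifts was not tested.

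Against their stretch medians, 12 of 109 members were called, 2 higher and 10 lower (11.0%; 12.5% of all genes, 4.75% higher and 7.77% lower). Of these, 8 had been called in the same direction by the authors: Trim13 (0.43 against its stretch, FDR 0.0314) and Usp36 (0.23, FDR 0.0264) higher, and Trim30a (-0.85, FDR 3.57e-14), Trim14 (-0.72, FDR 2.38e-10), Usp43 (-0.67, FDR 2.18e-06), Trim71 (-0.51, FDR 0.00827), Ube2l6 (-0.41, FDR 3.71e-04) and Ube2b (-0.32, FDR 0.00775) lower. Among the 4 gained were Usp28 (-0.27, FDR 0.0231), Usp53 (-0.29, FDR 0.0237) and Usp3 (-0.23, FDR 0.0377). By family the shares were 4 of 34 Trim (11.8%), 5 of 41 Usp (12.2%), 3 of 31 Ube2 (9.68%) and 0 of 3 Ube3 genes, so the higher share of Trim genes in the authors' calls did not remain. Of the 11 Trim increases, Trim13 alone was still called.

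The balance of directions rested on the centre from which changes were measured. All windows together had a median of 0.08, and with it subtracted the members stood at 6 higher and 17 lower in place of 22 and 12 (21.1% called). Over all genes 21.0% were called with that centre, 7.26% higher and 13.8% lower. With that centre 2 Trim genes were higher and 4 lower. Apart from Trim13, the Trim increases of 0.20 to 0.31 were 0.12 to 0.23 above the centre of all windows, with a median implied SE of 0.09 over the Trim genes.

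**Figure D3:**
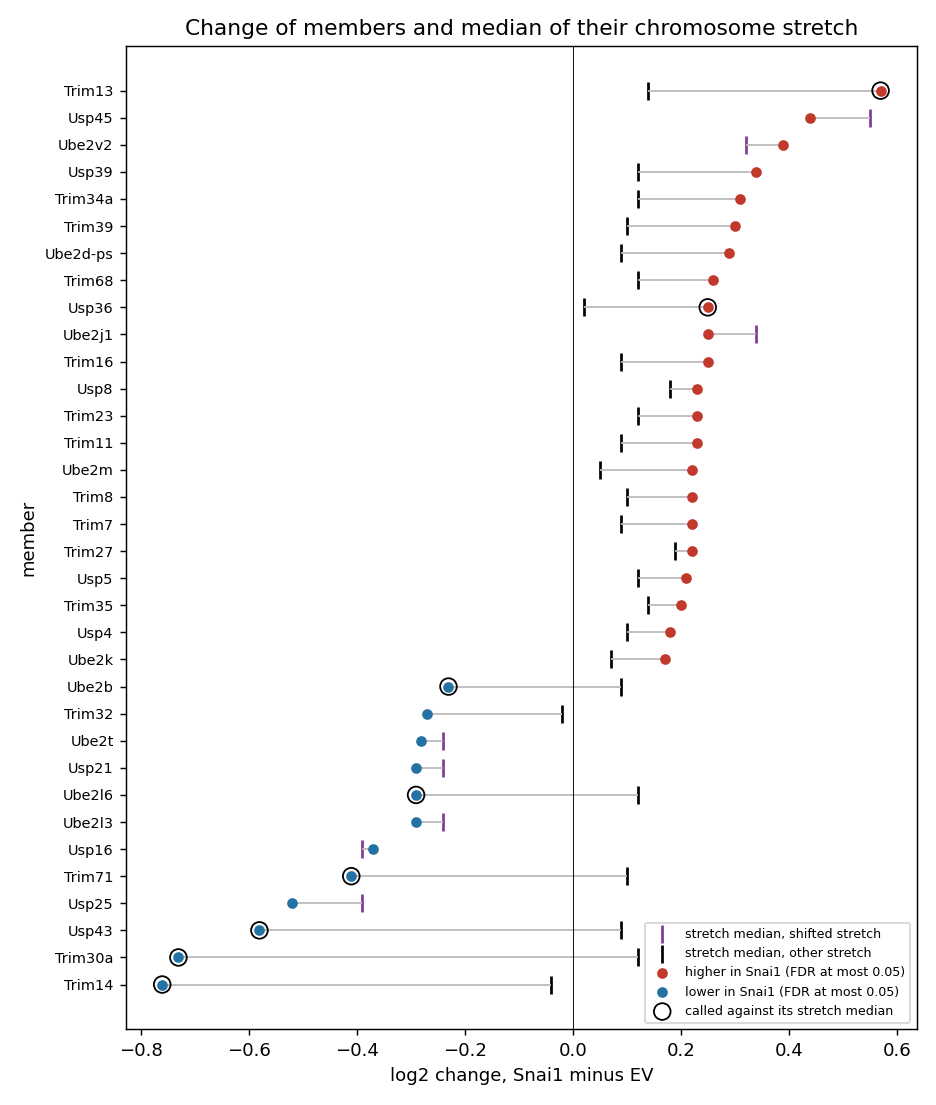
Log2 change (Snai1 minus EV, horizontal axis, points) of the 34 members called by the authors, with the median of the stretch each lies in (vertical ticks, purple where the stretch is shifted) and a grey line between them; open circles mark the 8 also called against the stretch median. Usp16 (-0.37) and Ube2t (-0.28) lie beside purple ticks, while Trim30a and Trim14 lie far from theirs.

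Promoter sequence was compared as a description. Of 109 members, 82 had a RefSeq promoter entry within 1000 bp of the window's start position. The E-box that Snai1 binds, CAGGTG or its reverse complement CACCTG on the other strand, was in 16 of these 82 promoters (19.5%), against 16.0% of all 8138 promoters of the same length. Of the members called lower, 1 of 10 held it (Usp16, 44 bases after the start), of those called higher 3 of 15 (among them Trim34a and Ube2d-ps), and of those not called 12 of 57 (21.1%). For all genes the shares were 18.8% of the lower, 13.9% of the higher and 16.1% of the uncalled promoters. None of the 4 promoters printed above holds these letters.

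The Trim promoters were poorer in CpG than those of the other families. Their median was 17 per promoter, against 27.5 for Ube2, 30.5 for Usp and 29 for Ube3 genes, and 22 for all genes. Of 7 members with at most 5 CpG, 6 were Trim genes (Trim2, Trim12c, Trim13, Trim21, Trim30a and Trim34a, with Usp54 as the other), and 2 of these 7 were called higher and 1 lower. Among all genes with at most 5 CpG, 31.9% were called. The Spearman correlation of CpG number with the size of the change was weak, -0.16 for the 82 members and -0.1 for all genes. With log2 concentration in place of CpG number it was -0.24 and -0.16. Trim genes also had the lowest median log2 concentration, 10.56, against 10.97 for Usp, 11.13 for Ube2 and 11.92 for Ube3 genes and 10.82 for all genes. These levels were not adjusted for window width.

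**Figure D4:**
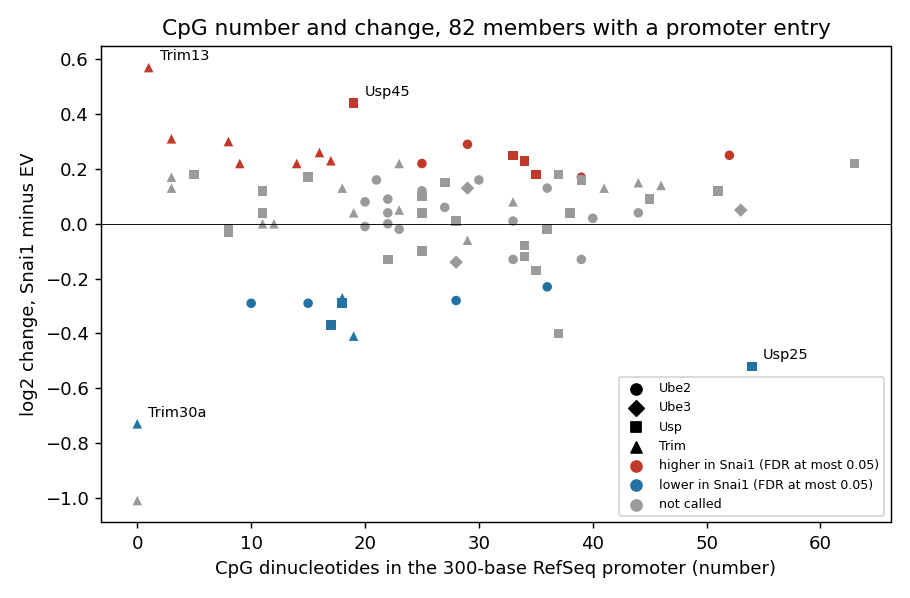
Log2 change (Snai1 minus EV, vertical axis) against the number of CpG dinucleotides in the 300-base RefSeq promoter (horizontal axis) for the 82 members with an entry; symbols mark families and colours the authors' call. With nearly no CpG, Trim13 (1 CpG) lies at the top of the plot, and Trim2 (0 CpG, -1.01, not called) and Trim30a (0 CpG, -0.73) at the bottom, while Usp25 fell with 54. Over the 82 members the Spearman correlation of CpG number with the size of the change was weak (-0.16). Trim14 and Usp43 have no entry and are not shown.

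Other genes of the ubiquitin pathway, taken from lists, also moved both ways. Of 9 E1 genes and their partners, 1 rose in the authors' deposited table, Sae1 of the SUMO-activating enzyme (0.31, FDR 0.0179), and 8 were not called. In both re-tests Sae1 was no longer called (FDR 0.0973 against its stretch median, 0.117 against the median of all windows), whereas Uba3, of the NEDD8-activating enzyme, was called lower (-0.31, FDR 0.00485, and -0.27, FDR 0.0119). Of 19 other HECT ligase genes, 4 rose, among them Wwp1 (0.44, shifted stretch on chromosome 4), while 2 fell, among them Smurf1, a ligase of BMP and TGF-beta signalling (10.34 to 9.83, change -0.51). Cullin ligase core genes were called in 2 of 18, both higher: Cul1 (0.27) and Fbxw11 (0.20), which encodes a substrate receptor of the beta-TrCP type, known to bind Snai1. Against their stretch medians neither was called (FDR 0.14 and 0.308), and Cul3 alone of the 18 was, lower (-0.27, FDR 0.038). Other deubiquitinase genes stood at 2 higher and 4 lower of 24, 3 of the 4 lower ones (Atxn3, Otub2 and Uchl5) in shifted stretches. Proteasome genes, taken by symbol, stood at 8 higher and 3 lower of 37, with the immunoproteasome genes Psmb10 (0.45) and Psmb9 (0.24) among the higher. Psmc3ip, 1 of those 8, encodes no proteasome subunit. The proteasome list stood at 0 higher and 2 lower against stretch medians, and at 2 higher and 5 lower with the median of all windows subtracted. Against stretch medians the HECT list stood at 0 higher and 1 lower (Smurf1), and the other deubiquitinases 1 higher and 2 lower. Called shares in the authors' deposited table were 11.1% of the E1 and of the cullin list, 31.6% of the HECT and 29.7% of the proteasome list, beside 29.9% of all genes. Median changes of these lists lay between 0.04 and 0.15, beside 0.08 for all genes.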

How the data were processed

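The authors' deposited table compares EV with Snai1 over promoter windows. The submitters' processing notes name mm10 and the tools fastp, Bowtie2, Picard and DiffBind. Versions, peak calling, Tn5 shift, counting, scaling and reads per library are not given in the sources used, so depth is unknown. Per the file headers, its columns are log2 concentrations (overall and by group), a log2 fold, a p-value and an FDR (columns of values per sample: 0).

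The sign of the fold, EV minus Snai1, was turned. After 3 exact repeats were dropped, 10271 windows remained: 5251 of 2001 bp (plus strand; gene start at 1000 bp) and 5020 of 1101 bp (minus strand; 100 bp after the start). A window took the RefSeq gene (GRCm38.p6) with a 5' end within 1000 bp on that strand, else the 1 gene spanning it (8955, 1275 and 41 without). Strand came from the RefSeq promoter table where it lists the gene. Each gene kept its window of highest concentration; 95 of 109 members had one at a 5' end. Trim11 has windows on both strands, 43 bp apart.

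No test across libraries was possible; the authors' DiffBind p and FDR (0.05) stand. Re-tests used the implied SE (median of 20 accessibility bins where the change was under 0.1) and Benjamini-Hochberg adjustment over all windows. Their code was checked on simulated data, with noise drawn from the same implied SE and planted changes larger than those of any called member. Such a check cannot show how well the re-tests suit these data. Stretches were an optimal partition (log2 concentration at least 9, at least 15 windows, changes limited to 0.75 from the centre, penalty 4 times the noise variance and the log window number) in Python 3.11.15, numpy 2.4.6, pandas 2.3.3 and scipy 1.17.1.

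Members and lists were chosen with earlier results of these data known. Named genes were the 5 largest called increases and decreases per family and a list of well-known members; others (Trim2, Trim3, Trim12c, Usp3, Usp53, pathway genes) were picked after their values were seen. In the pathway lists 1 name (Areel1) matched no gene. Some members are not reported by name.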

Additional observations from a re-analysis of the deposited data

How the results depend on the processing

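At an FDR of at most 0.01, 11 members were higher, with 4 Ube2 and 7 Trim genes called. The share of all genes at that FDR is not given here, so these counts cannot be set against the background. With the median of all windows subtracted, 6 members were higher and 6 Trim genes called. With the stretch median subtracted, 2 members were higher, with 3 Ube2, 5 Usp and 4 Trim genes called. Members in shifted stretches were also left out, a choice made after seeing the data. Then 7 members were lower, with 5 Ube2 and 6 Usp genes called. Of the 9 members left out, 8 had been called. The cause of the other differences was not tested. The remaining counts stayed within 1.5 times the values of the report under these settings, as did all 6 counts with the window of smallest p, with only windows at a 5' end (95 members) and with a log2 concentration of at least 9 (104 members).

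Of 50 named genes, 38 kept their side of the threshold with the median of all windows subtracted, 10 were no longer called and 2 were newly called. With stretch medians subtracted 28 kept it, 17 lost the call in the same direction, 2 were newly called, and 3 more lost the call and turned sign: Ube2j1 (-0.09), Usp16 (0.02) and Usp45 (-0.11). Some genes called in neither turned sign too, among them Usp7 (0.22 to -0.10), Trim24 (0.08 to -0.04) and Trim33 (0.05 to -0.07). No paired analysis was possible because only group values are in the table, and for the same reason no library could be left out. Weakly open windows such as Trim2 and Usp2 had a large implied SE (0.48 and 0.25), beside a median of 0.08 over the members. At Trim2 even a change of -1.01 was not called.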
